A study of Mus musculus with 4 samples.

Results

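The microRNAs (miRNAs) miR-338-3p, miR-489 and miR-22 were followed in mouse lung by 4 quantitative PCR assays, out of 750 miRNA assays on the plates. They were taken by their miRBase names: mmu-miR-338-3p, mmu-miR-489, rno-miR-489 (a second miR-489 assay, named for rat) and mmu-miR-22. The miRNAs were chosen because their levels were higher in adult than in neonatal lung and because they lie outside the large miRNA families, so their age differences are given as a description and are not tested. All 4 assays had a threshold cycle (Ct, the PCR cycle at which signal crosses a set level) of 35 or below in every library, the limit used here for detection, which 426 of the 750 assays met.

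Lung RNA came from 4 groups of mice with 1 library each. The neonatal groups were exposed from soon after birth and collected at day 3; for 72 h they breathed either room air or 95% oxygen (hyperoxia). The adult groups were 2 months old and had the same exposures. The labels name no genotype, transgene or strain, and leave the number of animals per library unstated. The sample was whole right lung after the pulmonary artery was flushed, so a difference can come from fewer cells of a type or from less RNA per cell, and these cannot be told apart.

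A miRNA is cut from one arm of a hairpin precursor and guides repression of mRNAs that pair with its seed, the bases at positions 2 to 8 from its 5′ end. miR-338-3p comes from an intron of Aatk, a kinase gene of the nervous system, and is best known for promoting the maturation of oligodendrocytes, the myelin-forming glia. miR-489 comes from an intron of Calcr, the calcitonin receptor gene, and is known for holding muscle stem cells in quiescence. miR-22 is made from its own noncoding host transcript and is known as abundant in heart and skeletal muscle, where it promotes hypertrophic growth.

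The 3 mature sequences are shown because they share no seed with each other, so each would pair with its own set of targets. They are from RefSeq (GRCm38.p6), where all 3 mouse-named miRNAs were matched under their present names, and capitals mark the seed.
miR-338-3p: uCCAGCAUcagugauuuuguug
miR-489-3p: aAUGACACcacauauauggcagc
miR-22-3p: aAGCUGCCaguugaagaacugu
miR-338-3p lies at chr11:120014781-120014802 on the minus strand, within the span of Aatk. miR-489-3p lies at chr6:3721922-3721944 on the minus strand, within the span of Calcr, and miR-22-3p at chr11:75463772-75463793 on the plus strand, within the noncoding gene Mir22hg. Among mature mouse miRNAs in RefSeq, 0 others had the seed of miR-338-3p or of miR-22-3p, and 1, miR-425-5p, had the seed of miR-489-3p. The rat sequence behind the second miR-489 assay was not used here.

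The hairpins are shown because both arms of miR-338 and of miR-22 were measured, and capitals mark the 2 mature arms, with the 5p arm first.
Mir338: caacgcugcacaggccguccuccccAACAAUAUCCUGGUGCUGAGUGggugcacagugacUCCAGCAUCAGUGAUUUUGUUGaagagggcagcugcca
Mir489: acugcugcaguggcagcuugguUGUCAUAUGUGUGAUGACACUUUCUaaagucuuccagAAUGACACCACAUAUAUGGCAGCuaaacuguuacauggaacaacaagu
Mir22: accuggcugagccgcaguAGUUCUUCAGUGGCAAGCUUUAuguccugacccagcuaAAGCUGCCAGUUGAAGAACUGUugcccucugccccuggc

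As a set, the 3 miRNAs were lowest in neonatal room air, higher in neonatal hyperoxia and highest in both adult libraries. Ct values are given first, and a lower Ct means more RNA. The Ct of miR-338-3p was 29.2 (room air) and 27.8 (hyperoxia) in neonates and 25.1 and 24.8 in adults. The Ct of miR-489 was 28.0 and 26.2 in neonates and 23.6 and 23.0 in adults, always with room air first. On the rat-named miR-489 assay it was 28.6 and 26.3, then 23.7 and 23.5. Both miR-489 assays thus crossed within 1 cycle of each other in every library although they sit on different plates. For miR-22 the Ct was 24.7 and 23.0 in neonates and 20.1 and 20.4 in adults. Ct values of different assays depend on each assay's efficiency, so they do not rank the 3 miRNAs by abundance.

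**Figure D1:**
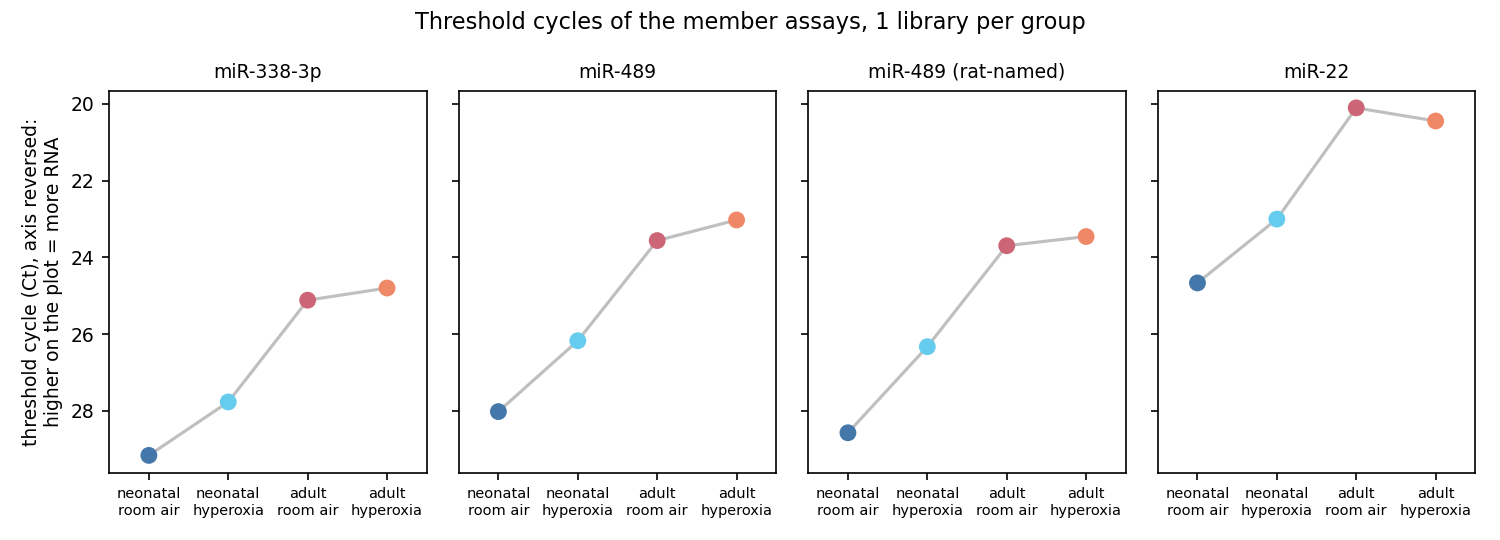
Threshold cycle (Ct, reversed axis, in cycles) of the 4 assays in each library, 1 point per library and no error bars because each group has 1 library. Every assay sits lowest in neonatal room air (Ct 29.2, 28.0, 28.6 and 24.7 from left to right), and the adult libraries lie above both neonatal ones.

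Levels were then set against snoRNA202, a small nucleolar RNA measured on each plate of 384 wells (called a card; each library has 2). This level is the card's snoRNA202 Ct minus the assay's Ct, a log2 scale on which 1 unit is 2-fold at perfect amplification. snoRNA202 itself crossed earlier in adults: its Ct was 14.1 and 13.4 in neonatal and adult room air on the first card and 15.3 and 13.7 on the second. The level differences between ages are therefore smaller than the Ct differences. The only repeat measurements are 4 control RNAs present on both cards (U6, snoRNA135, U87 and Y1), and the disagreement between cards gave a technical SD of 0.65 log2 for adult minus neonatal in room air and 0.95 in hyperoxia. For hyperoxia minus room air it was 0.26 in neonates and 0.33 in adults. It leaves out variation between animals.

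miR-338-3p had levels of -15.11 (room air) and -14.24 (hyperoxia) in neonates and -11.68 and -11.96 in adults. The adult was 3.42 log2 higher in room air, or 10.7-fold, and 2.28 higher in hyperoxia, or 4.85-fold. Both adult libraries were above both neonatal ones, by 5.28 and 2.40 times the technical SD of their comparison. Over both oxygen conditions the age estimate was 2.85 ± 0.44 log2 (SE, limma, 4 libraries). Such multiples and age estimates, here and for the other chosen assays, describe the difference that led to the choice and do not test it.

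miR-489 gave the largest age differences of the 4 assays in both pairs. Its levels were -13.96 (room air) and -12.64 (hyperoxia) in neonates and -10.13 and -10.19 in adults. The adult was 3.83 log2 higher in room air (14.3-fold) and 2.46 higher in hyperoxia (5.48-fold). The adult libraries were nearly level with each other, and the age estimate over both was 3.14 ± 0.49 (SE, limma).

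The rat-named miR-489 assay had levels of -13.26, -11.72, -10.04 and -9.69 in the same order. Its adult minus neonatal difference was 3.22 log2 in room air (9.34-fold) and 2.03 in hyperoxia (4.08-fold), and the age estimate was 2.63 ± 0.45 (SE, limma). It differed from the mouse-named assay by 0.61 log2 in room air and 0.43 in hyperoxia, under the technical SD of each comparison. For 26 miRNAs with a mouse-named and a rat-named assay, both detected in all 4 libraries, the median gap between assays was 0.97 log2 in room air and 0.75 in hyperoxia, and the largest 3.36 and 3.25. The 2 miR-489 assays are not independent samples, because they were run on the same 4 libraries. Both were also chosen for being higher in adults. Whether the rat-named assay reads the mouse miRNA was not checked.

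miR-22 had levels of -9.36 (room air) and -8.39 (hyperoxia) in neonates and -6.45 and -6.68 in adults. The adult was 2.91 log2 higher in room air (7.52-fold) and 1.72 higher in hyperoxia (3.28-fold), the smallest differences of the 4 assays. In hyperoxia the difference was 1.81 times the technical SD. Its age estimate over both conditions was 2.31 ± 0.45 (SE, limma).

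Among all assays, 16.6% of the 435 compared between the room air libraries were at least 2-fold higher in the adult, and 10.9% of the 450 compared between the hyperoxia libraries. All 4 assays were higher by that much in both comparisons, as were 7.98% of the assays detected in every library; the way they were chosen fixed this. They ranked 9 (miR-489), 12 (miR-338-3p), 16 (rat-named miR-489) and 18 (miR-22) from the highest in room air, and 17, 18, 20 and 24 in hyperoxia. The median assay was lower in adults, at -0.57 log2 in room air and -0.98 in hyperoxia. The limma fit of age called 5.63% of the 426 fitted assays higher in adults and 30% lower, a share given for scale.

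**Figure D2:**
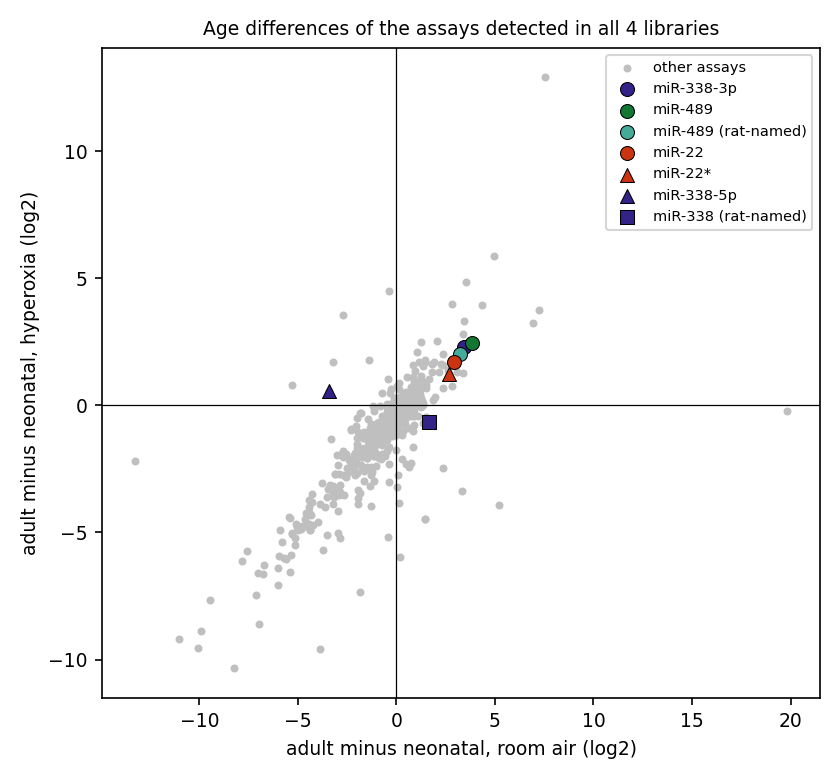
Adult minus neonatal difference (log2, snoRNA202 of the same card) in room air (x axis) and in hyperoxia (y axis), 1 point for each of the 426 assays detected in all 4 libraries. The 4 chosen assays and miR-22* lie together at the upper right, while miR-338-5p (-3.43 in room air, 0.55 in hyperoxia) and the rat-named miR-338 assay (1.68 and -0.66) lie apart from them.

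The size of the age difference depended on the reference RNA, and its sign did not for any of the 4 assays under the 6 references tried. In room air miR-338-3p ranged from 3.42 to 6.07 log2, miR-489 from 3.83 to 6.48, the rat-named assay from 3.00 to 4.67 and miR-22 from 2.69 to 4.36. In hyperoxia the ranges were 2.28 to 5.25, 2.46 to 5.43, 2.03 to 3.43 and 1.72 to 3.12. With each card centred on its own median, the age differences were 4.56, 4.98, 4.10 and 3.78 in room air and 3.94, 4.12, 3.05 and 2.74 in hyperoxia. On that scale 39.3% and 36.4% of all assays were at least 2-fold higher in the adult. The snoRNA202 scale and the deposited values therefore gave the lowest values for every one of the 4 assays.

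**Figure D3:**
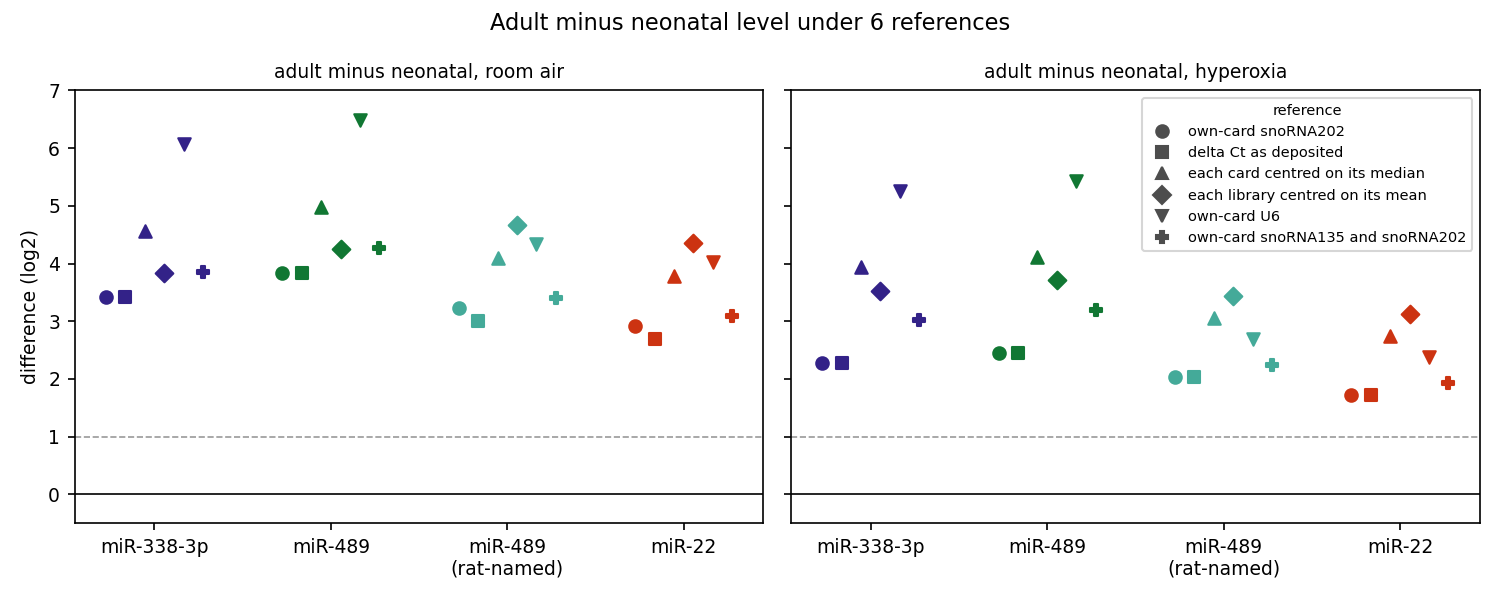
Adult minus neonatal difference (log2) of the 4 assays in room air (left) and in hyperoxia (right), with 1 marker shape for each of 6 references; the dashed line marks 2-fold. All points are above 1, from 1.72 for miR-22 in hyperoxia to 6.48 for miR-489 in room air with U6.

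The miRNAs were chosen on age and not on oxygen. The neonatal room air library nevertheless enters both comparisons, and a low value there makes the age difference and the neonatal oxygen difference larger together, so the neonatal differences are given as a description. In neonates all 4 assays were higher after hyperoxia: miR-338-3p by 0.87 log2 (1.83-fold), miR-489 by 1.32 (2.50-fold), its rat-named assay by 1.54 (2.91-fold) and miR-22 by 0.96 (1.95-fold). Each difference was 3.40 or more times the technical SD of 0.26, which comes from control RNAs only. Between the mouse-named and rat-named assays of 26 miRNAs, the median gap in this comparison was 0.386 log2 and the largest 1.435. For miR-489 it was 0.22. The differences of miR-489 on both assays passed 2-fold, as did 13.6% of the 469 assays compared, and miR-338-3p and miR-22 did not. The median of all assays was 0.13.

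In adults the same exposure left the assays close to room air. miR-338-3p was at -0.28 log2, miR-489 at -0.06, its rat-named assay at 0.35 and miR-22 at -0.23, against a technical SD of 0.33 and a median of -0.24 over 448 assays. At 2-fold or more higher were 3.79% of all assays and 0 of these 4. The signs of miR-338-3p and miR-489 turned with the reference, with ranges of -0.28 to 0.39 and -0.06 to 0.61. miR-22 stayed below 0 and the rat-named miR-489 assay above 0 under all 6 references.

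Over both ages, oxygen was tested in an additive model of age and oxygen with limma over all 426 assays. miR-338-3p was at 0.30 ± 0.44 log2 (SE; 95% interval -1.06 to 1.65; limma, Benjamini-Hochberg adjusted p = 0.988). miR-489 was at 0.63 ± 0.49 (interval -0.87 to 2.14) and its rat-named assay at 0.95 ± 0.45 (interval -0.44 to 2.33), with the same adjusted p of 0.988 in limma. miR-22 was at 0.37 ± 0.45 (interval -1.02 to 1.75; limma, adjusted p = 0.988). None of the 4 passed the test, and each interval includes differences beyond 2-fold. Over all assays limma called 0 of 426 (0%), and 13 (3.05%) had an unadjusted p under 0.05. With 1 library in each group, the difference between the neonatal and the adult response has no test. That difference is also the residual of the fit, so it widens the intervals given here.

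**Figure D4:**
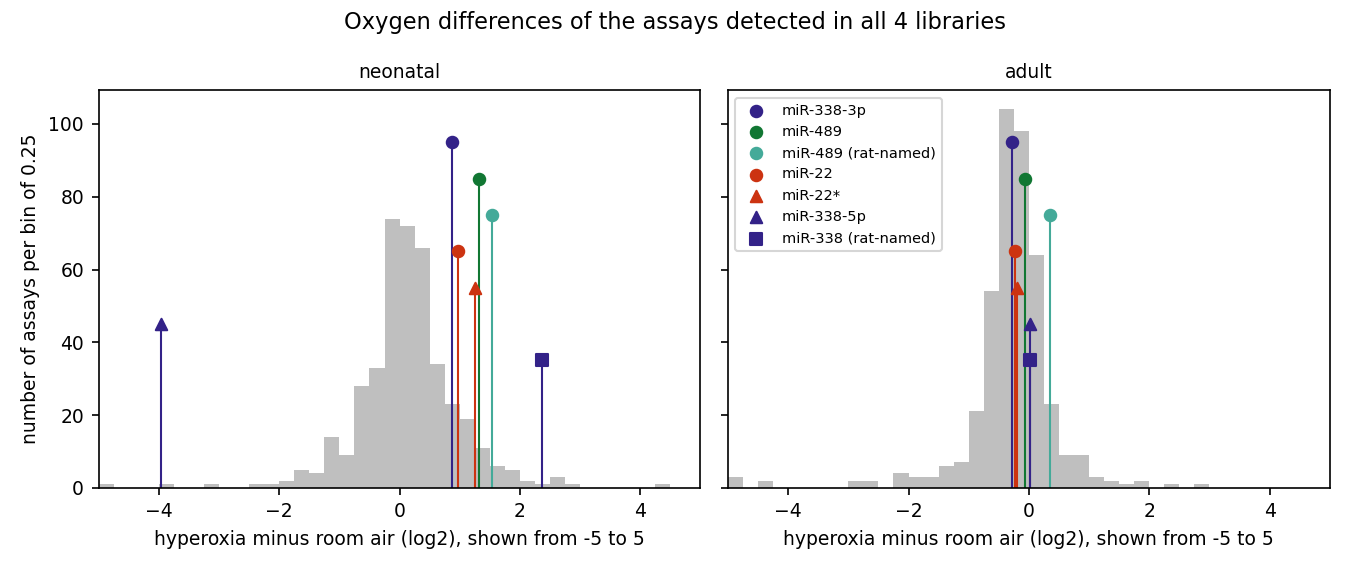
Number of assays (y axis, bins of 0.25) by hyperoxia minus room air difference (x axis, log2) in neonates and in adults; 8 and 2 assays lie outside the axis. Stems mark the chosen assays and their partners (stem height has no meaning): in neonates the 4 chosen assays stand at 0.87 to 1.54, and in adults at -0.28 to 0.35.

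The other arm of the miR-22 hairpin followed miR-22. miR-22*, the 5p arm, had a Ct of 28.1 (room air) and 26.2 (hyperoxia) in neonates and 23.8 and 24.1 in adults. It was 2.69 log2 higher in the adult in room air, 1.24 higher in the adult in hyperoxia, 1.25 higher after neonatal hyperoxia and at -0.20 after adult hyperoxia. Its difference from miR-22 was -0.22 in the room air age pair and -0.48 in the hyperoxia pair. Both arms sit on the second card, so snoRNA202 cancels from these gaps. The technical SD comes from disagreement between cards and is not a measure of them. Of 72 hairpins with both arms detected in all 4 libraries, 56 had a wider gap between arms in room air, where the median gap was 0.99. Hairpins such as let-7a have their arms on different cards, which can widen the gap, so the comparison is not like for like.

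The arms of miR-338 did not move together. miR-338-5p crossed at Ct 20.8 in neonatal room air, against 24.0 in neonates after hyperoxia and 22.6 (room air) and 22.7 (hyperoxia) in adults, so that the neonatal room air library was the earliest for this arm and the latest for miR-338-3p. Its level was 3.43 log2 lower in the adult than in the neonate in room air, and 0.55 higher in hyperoxia. It was 3.96 lower after hyperoxia in neonates and at 0.02 in adults. The gap between the arms, 6.86 log2 in the room air age pair, was the second widest of the 72 hairpins, and in the hyperoxia pair, which leaves out the neonatal room air library, it was 1.73 and ranked 23. limma did not call oxygen for miR-338-5p (-1.97 ± 1.16, adjusted p = 0.988), and no other assay of this arm was analysed here.

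A further assay, filed under rat miR-338, repeated the age difference of miR-338-3p only in room air. Its Ct was late, at 33.0 (room air) and 29.9 (hyperoxia) in neonates and 29.6 and 29.7 in adults. The adult was 1.68 log2 higher in room air, against 3.42 for miR-338-3p, and at -0.66 in hyperoxia, against 2.28. Under 2 of 6 references the hyperoxia value was above 0. After neonatal hyperoxia it was 2.36 higher, the twelfth highest of 469 assays. Which arm this assay reads was not checked. If it reads miR-338-3p, it repeated the age difference at a smaller size in room air and did not repeat it in hyperoxia. Both miR-489 assays were chosen for being higher in adults, so their shared direction with age was fixed by that choice. miR-22*, which was not among the chosen assays, was higher in adults in both pairs, as miR-22 was.

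**Figure D5:**
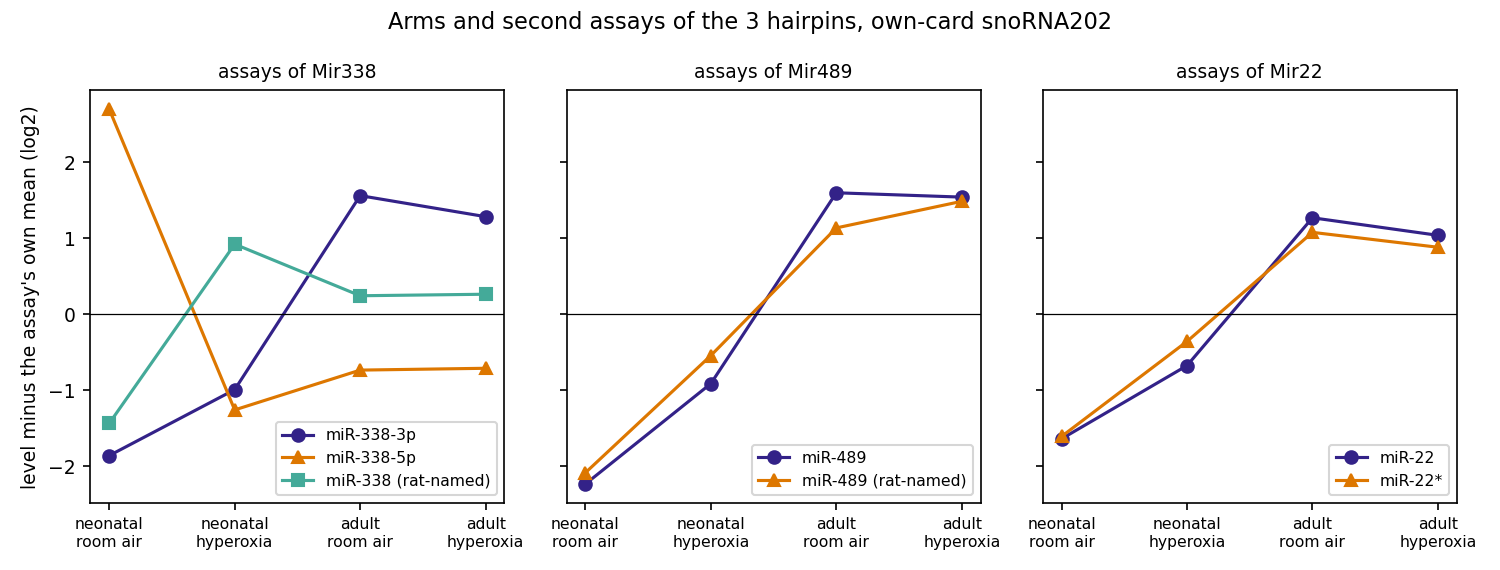
Level of each assay minus its own mean over the 4 libraries (log2, snoRNA202 of the same card) for the assays of the 3 hairpins. The 2 miR-489 assays and the 2 miR-22 arms run together, while miR-338-5p starts highest in neonatal room air, where miR-338-3p is lowest.

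The neighbour of miR-489 in Calcr is miR-653, whose hairpin lies 511 bases away on the same strand. Its rat-named assay crossed no threshold in either neonatal library (Ct 40) and crossed in adults at Ct 32.1 (room air) and 34.8 (hyperoxia). In room air this is at least 1.29 log2 (2.45-fold) higher in the adult, taking the detection limit of Ct 35 for the neonate. In hyperoxia the adult value lay below that limit's level, so no fold is given. The mouse-named miR-653 assay was at Ct 36.8 or later in every library and so was detected in 0 of 4.

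The miRNA that shares the seed of miR-489-3p did not share its pattern. Its sequence is shown with the seed in capitals, from RefSeq (GRCm38.p6), at chr9:108568789-108568811 on the plus strand.
miR-425-5p: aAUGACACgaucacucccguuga
It is identical to miR-489-3p over the first 8 bases and at 12 of 23 positions in all. The Ct of miR-425 was 22.2 (room air) and 21.7 (hyperoxia) in neonates and 21.9 and 21.8 in adults. Its adult minus neonatal difference was -0.29 log2 in room air and -0.86 in hyperoxia, against 3.83 and 2.46 for miR-489, and limma did not call it for age (-0.57 ± 0.34, adjusted p = 0.264).

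The assays nearest in pattern were sought among 390 others with a Ct of 32 or below in every library, by the root mean square (RMS) difference of the 4 levels after each assay was centred on its own mean. miR-338-3p and miR-489 were nearest to each other at an RMS of 0.23 log2, against a median of 1.90 for all assays from miR-338-3p. The other neighbours of miR-338-3p were miR-29a, of the family that represses collagens, at 0.24, miR-22 at 0.27, rat-named miR-489 at 0.34 and miR-547 at 0.37. Those of miR-489 were its rat-named assay at 0.31, miR-29a at 0.38, miR-22 at 0.44 and the passenger strand miR-29a* at 0.48. miR-29a differed from miR-489 in the neonatal oxygen comparison, where it was at 0.27 log2 against 1.32.

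miR-22 was nearest to miR-547, at an RMS of 0.16, then to its own other arm miR-22* at 0.20, miR-30b* at 0.24, miR-338-3p at 0.27 and rat-named miR-489 at 0.33. Rat-named miR-489 had as neighbours miR-489 at 0.31, miR-125b-3p at 0.32, miR-22 at 0.33, miR-338-3p at 0.34 and miR-547 at 0.39. miR-125b-3p was 1.56 log2 higher after neonatal hyperoxia and 2.61 higher in the adult in room air. The distances between the 4 chosen assays ran from 0.23 to 0.44, and their nearness was in part fixed by choosing them for one age pattern in these libraries. These values describe 4 libraries that all assays share.

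Each miRNA is grouped with others for its role in another tissue. Of 13 such partners that were fitted, limma called 2 higher and 0 lower in adults, against 5.63% and 30% of all assays. Of the glial differentiation list, the other detected members miR-219 and miR-138 were at 0.02 and -0.20 log2 for adult minus neonatal in room air and at -0.29 and -1.13 in hyperoxia. With miR-338-5p, 0 of 3 were called for age by limma. Of the muscle stem cell quiescence list, miR-497 rose with age by 1.57 ± 0.33 (limma, adjusted p = 0.0452), while miR-195 at 0.73 and miR-31 at -0.08 were not called, so 1 of 3 rose. The median of these 3 was 0.75 in room air, against -0.57 for all assays.

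In the cardiac muscle growth list 7 members other than miR-22 were fitted, and of these miR-23a rose, by 5.08 ± 1.07 (limma, adjusted p = 0.0458). Its Ct was 34.9 in neonatal room air, at the edge of detection, and 27.3 in adult room air. The heart and skeletal muscle miRNAs miR-1 (-0.39), miR-133a (-0.09), miR-133b (-0.45), miR-208a (-1.33) and miR-208b (-1.47) and the injury-induced miR-21 (1.35) were not called for age. Without miR-22 the list had a median age difference of 0.27 (room air) and -1.03 (hyperoxia). For oxygen limma called 0 members of the 3 lists.

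Markers of cell types were read beside these values. Lung markers were early in every library: the endothelial miR-126 had a Ct of 9.96 to 10.98 and the epithelial miR-200c of 14.3 to 16.0. For adult minus neonatal, the endothelial list had a median of 0.28 log2 (room air) and -0.13 (hyperoxia), and the epithelial list of 0.50 and -0.895. Epithelial markers were split in room air, with miR-200c at 0.84 and miR-429 at -1.16, and in hyperoxia these were at -1.63 and -1.98. Among neuronal and glial markers, miR-124 was lowest in neonatal room air, as the chosen miRNAs were. Unlike them, it was 2.91 log2 higher after adult hyperoxia, where the chosen assays were at -0.28 to 0.35. It was not detected in neonatal room air (Ct 40) and crossed at Ct 29.8 in neonates after hyperoxia and at 29.8 (room air) and 26.3 (hyperoxia) in adults. Against the detection limit it was at least 4.56 log2 higher in adult room air and at least 4.69 higher in neonates after hyperoxia, and the adult was 2.79 higher than the neonate in hyperoxia. The other markers of that list were lower or near 0 for adult minus neonatal, with miR-9 at 0.44 (room air) and 0.29 (hyperoxia), miR-137 at -2.09 and -2.74, and miR-219 as above.

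Markers of connective tissue were lower in adults while the chosen miRNAs were higher. The 3 fibroblast and mesenchyme markers had a median of -2.42 log2 for adult minus neonatal in room air and -2.13 in hyperoxia. The median of all assays was -0.57 and -0.98. The limma fit called miR-214 (-3.004) and miR-199a-5p (-2.28) lower with age, 2 of 3, beside 30% of all 426 fitted assays. Smooth muscle miR-145 had age differences of 1.41 (room air) and 0.94 (hyperoxia), and miR-143 was at 0.50 and 0.18, with 0 of 2 called. The 3 erythroid markers had medians of -1.03 and -0.79, with 0 called. Of the 4 leukocyte markers, both miR-142 arms (3p at 1.08 and 5p at 1.18) were at least 2-fold higher in adult room air, beside 16.6% of all assays. In hyperoxia 0 of 4 were, beside 10.9%. The leukocyte marker miR-150 was at 0.87 (room air) and 0.04 (hyperoxia), and miR-223 at -0.03 and -0.47. The part of these cells in the age differences of the chosen miRNAs was not tested.

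Of 7 striated muscle markers 6 were detected in all libraries, with a median of 0.09 (room air) and -1.57 (hyperoxia) for adult minus neonatal. At least 2-fold higher in adults were 0 of these in either pair, beside 16.6% and 10.9% of all assays. At least 2-fold lower were 1 in room air and 5 in hyperoxia. The share of all assays that much lower was not computed. In hyperoxia the median of all assays was -0.98, itself close to 2-fold lower, so this count is not read as particular to muscle. The limma fit called 1 of 6, miR-206 (-2.91), lower with age, beside 30% of all assays. After neonatal hyperoxia their median was 0.87, but they were split. The lowest were miR-206 at -1.03 and miR-208b at -0.37, and the highest miR-133a at 1.29 and miR-208a at 1.82. The 3 neuronal and glial markers detected throughout had a median of 1.15 in that comparison, beside the 0.87 to 1.54 of the chosen assays. They were split, with miR-9 at -0.30, miR-137 at 1.30 and miR-219 at 1.15. For adult hyperoxia minus room air they were at -0.45, 0.65 and 0.84 in that order, beside -0.28 to 0.35 for the chosen assays. The part of such cells in those differences was not tested.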

How the data were processed

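The authors deposited, per the file headers, threshold cycles and delta Ct (Ct minus that of snoRNA202), both log2 values in which less RNA gives a higher number. Per the labels' protocols, Megaplex primers (sets A and B) served for reverse transcription of total RNA, followed by preamplification and TaqMan assays. The cycle threshold and its software are not given in the sources used. A well without a crossing holds a Ct of 40. In the adult room air library the deposited delta Ct of all 384 second-card wells uses the first card's snoRNA202, an offset of 0.225. Levels were therefore recomputed with each card's own snoRNA202. No read depth exists for this assay: 468 to 507 miRNA assays per library had a Ct of 35 or below, with a median Ct of 24.0 to 24.2. In row L of the first card of adult room air, Ct correlated at 0.302 with the other libraries, and no well named in the text is in it.

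Differences of 2 libraries have no test. Oxygen was tested with limma 3.58.1 (R 4.3.3; lmFit, eBayes, age and oxygen as terms) on 426 assays with Benjamini-Hochberg adjustment at 0.05. There is 1 residual degree of freedom per assay, with 2.16 prior ones. With 1 library per group, the residual is how far an assay departs from additive effects of age and oxygen. An oxygen difference that is unlike between the ages therefore widens the standard errors and raises p. An error of the reference RNA is not in these standard errors. As separate animals are not stated, p-values cover only that departure, possibly technical, and no spread between replicates. Simulated data with known additive changes and the same noise for every assay served to check the code. In the data the residual differs between assays, so this check does not tell how many real oxygen changes the fit would miss. The named miRNAs were the chosen assays, their other arms, other-species assays and neighbours, assays sharing a seed, the 5 nearest patterns of each, and the list members (miR-208 and miR-126-3p are filed as miR-208a and miR-126). The miRNAs and lists were chosen with earlier results of these data known.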

Additional observations from a re-analysis of the deposited data

Results flagged for a closer look

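Opposite directions in the 2 ages or in the 2 oxygen conditions drew attention to 6 assays; with 1 library per group none of these differences was tested. For hyperoxia minus room air, the neonatal minus the adult effect was 1.15 log2 for miR-338-3p (0.87 against -0.28), 1.38 for miR-489 (1.32 against -0.06), 1.20 for miR-22 (0.96 against -0.23) and 1.45 for miR-22* (1.25 against -0.20). The adult values of these assays lay within the technical SD of 0.33, and those of miR-338-3p, miR-489 and miR-22* changed sign with the reference. For miR-338-5p the same difference was -3.98 (-3.96 against 0.02). The age difference of miR-338-5p in room air minus that in hyperoxia was also -3.98 (-3.43 against 0.55), since the same 4 values enter both. For the rat-named miR-338 assay the age difference in room air minus that in hyperoxia was 2.34 (1.68 against -0.66).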

How the results depend on the processing

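The age differences of the 4 assays kept their direction under all 5 alternative references, and 20 of 40 values moved by more than the technical SD. With each card centred on its median the values for miR-338-3p, miR-489, rat-named miR-489 and miR-22 were 4.56, 4.98, 4.10 and 3.78 log2 in room air and 3.94, 4.12, 3.05 and 2.74 in hyperoxia. With U6 they were 6.07, 6.48, 4.35 and 4.03 in room air, and 5.25 for miR-338-3p and 5.43 for miR-489 in hyperoxia. With each library centred on its mean, rat-named miR-489 was at 4.67 and miR-22 at 4.36 in room air, and the 4 assays at 3.53, 3.71, 3.43 and 3.12 in hyperoxia. Of 40 oxygen differences at 1 age, 4 moved: with U6 neonatal rat-named miR-489 to 2.05 and miR-22 to 1.47, and with mean centring adult miR-338-3p to 0.39 and adult miR-489 to 0.61. The cause was not tested. For oxygen over both ages the 28 alternative values of the 4 assays kept their sign and missed the threshold (limma, adjusted p from 0.801 to 0.989), and 0 assays were called under all 7 alternatives, including a Ct limit of 32 and a trended prior. Chosen after seeing the data, card centring kept 4 of the 5 nearest patterns of miR-338-3p, miR-489 and miR-22 and 3 of 5 of rat-named miR-489. No paired analysis was possible because each group has 1 library. Late Ct values limit precision for partner assays such as rat-named miR-338, at Ct 33.0 in neonatal room air. The 4 chosen assays crossed between Ct 20.1 and 29.2. No repeat well of any of them exists. Rat-named assays were present for miR-489 and for miR-338, and their match to the mouse miRNAs was not checked.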
